A study of Mus musculus with 3 samples.

Results

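Common lymphoid progenitors (CLP) of mouse bone marrow in which at least 1 Pax5 transcript was counted are described here. They were chosen by their raw Pax5 count in the CLP library, among barcodes that showed no fewer than 500 genes and drew no more than 10% of their UMIs from mitochondrially encoded genes (UMIs are unique molecular identifiers, tags that count single captured transcripts). Of 948 such CLP cells, 79 had 1 or more Pax5 UMIs and are called Pax5+ cells, 8.33% of the library (exact Clopper-Pearson 95% interval 6.65 to 10.3). They are 79 of 2633 kept cells in the 3 libraries analysed. Because a Pax5 UMI chose these cells, and Ebf1 UMIs chose the CLP cells set against them, Pax5 and Ebf1 are given as a description. No other gene was used to choose them.

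All cells came from C57BL/6J bone marrow, and the labels give no age, sex, number of animals or treatment for the sorted marrow cells. The gate for CLP was B220- IL7Ra+ cKit+ Sca1+ with Flt3 either way (Flt3+/-), and that for pro-B cells was B220+ IL7Ra+ cKit+ and negative for Sca1 and Flt3. Lymphoid-primed multipotent progenitors (LMPP) were gated as B220- IL7Ra- with cKit, Sca1 and Flt3 all positive. The Pax5+ cells were compared with 332 CLP cells that had 2 or more Ebf1 UMIs and no Pax5 UMI (Ebf1+ Pax5- cells), from the same library, and with the 1106 cells of the pro-B library. The remaining 537 CLP cells and the 579 LMPP cells serve for orientation. With 1 library per population, cell sets have no replicate and no test was made. Intervals are at 95% and hold the error of counting alone.

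Pax5 encodes a transcription factor that holds lymphoid cells to the B lineage. In mouse marrow it acts downstream of Ebf1, another transcription factor that specifies B cells, and it switches on genes of the B cell receptor and its signalling while switching off genes of other lineages such as Flt3, Notch1 and Csf1r. CLP precede pro-B cells, can still give rise to other lymphoid cells, and begin to express B lineage genes before they carry B220 on their surface.

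The Pax5+ cells held 529902 UMIs in all, with a lowest, median and highest of 1528, 6162 and 20642 per cell, against 2091824 UMIs and a median of 6377.5 per cell in Ebf1+ Pax5- cells. Cells with 10000 or more UMIs numbered 15 of 79 Pax5+ cells and 23 of 332 Ebf1+ Pax5- cells. Mitochondrially encoded genes took 3.11% of UMIs in Pax5+ cells, 3.18% in Ebf1+ Pax5- cells and 2.09% in pro-B, and ribosomal protein genes took 40.3% in Pax5+ cells, 40.6% in Ebf1+ Pax5- cells and 27.9% in pro-B. Of all deposited CLP barcodes, 2 also occurred in pro-B and 3 in LMPP, and none of them belonged to a Pax5+ cell. Of 14 CLP cells that scrublet, a doublet caller, marked as possible doublets, 1 was a Pax5+ cell and 9 were Ebf1+ Pax5- cells.

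Pax5 (ENSMUSG00000014030, chr4:44524757-44710487, minus strand, GRCm38) was counted at the edge of detection. Of the 79 cells, 60 had 1 UMI, 14 had 2 and 5 had 3, 103 UMIs in all. Pro-B cells had a Pax5 UMI in 486 of 1106 cells (43.9%, interval 41.0 to 46.9), at up to 6 per cell, and LMPP in 0 of 579, which allows a share of cells with a Pax5 UMI of up to 0.518% (3 counts of 579). Within the CLP library a Pax5 UMI occurred in 1 of the 75 cells of a plasmacytoid dendritic-like cluster (1.33%) and in 0 of the 22 cells of an innate lymphoid-like cluster, whose cells had median depths of 7026 and 4886.5 UMIs. Cells just inside the threshold, with 1 Pax5 UMI, had a median of 7 Ebf1 UMIs at 6051.5 UMIs per cell, and the 869 cells just outside had a median of 1 Ebf1 UMI at 6305. When every cell was thinned to 2000 UMIs, only 30 of 73 Pax5+ cells kept a Pax5 UMI (41.1%, interval 29.7 to 53.2), with 6 shallower cells left out. A cell without a Pax5 UMI is thus not shown to lack the transcript.

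The 4 genes given as marks of these cells were present to very different degrees. Ebf1 (ENSMUSG00000057098, chr11:44617317-45008091, plus strand) was counted in 77 of the 79 cells, Cd79a in 53 and Igll1 in 13. All of Ebf1, Cd79a and Igll1 were detected in 11 cells, 2 of them in 43, 1 of them in 24 and none in 1 cell. The name therefore fits for Ebf1 in nearly all cells and for Cd79a in most, while 66 cells had no UMI of Igll1. Of other B lineage markers, Vpreb3 was counted in 38 cells, Vpreb1 in 27, Pou2af1 in 16 and Lef1 in 4.

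Pax5 detection followed the Ebf1 count across all 948 CLP cells, as a description. A Pax5 UMI occurred in 0.490% of the 408 CLP cells without Ebf1 (2 cells), in 2.24% of 134 cells with 1 Ebf1 UMI, and in 7.14% of 84 cells with 2. With 3 to 4 Ebf1 UMIs the share was 10.8% of 102 cells, with 5 to 9 it was 15.9% of 132, with 10 to 19 it was 38.7% of 75, and with 20 or more it was 7 of 13 cells (53.8%, interval 25.1 to 80.8). Median depth ran from 5754 to 6670 UMIs over the classes up to 19 Ebf1 UMIs, and stood at 9002 in the highest class. The lowest, median and highest Ebf1 count per cell were 0, 8 and 66 UMIs in Pax5+ cells, against 2, 4 and 30 in Ebf1+ Pax5- cells and 0, 22 and 67 in pro-B. Summed over cells, Ebf1 stood at 1496 CPM in Pax5+ cells (1394 to 1604; CPM is UMIs per 1000000 UMIs of the cell set), 904 in Ebf1+ Pax5- cells and 3567 in pro-B. The 2 Pax5+ cells without Ebf1 had 12027 and 6185 UMIs, each with 1 Pax5 UMI, and the second had no UMI of Cd79a, Igll1 or any Vpreb gene but 5 of Flt3 and 4 of Il7r.

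**Figure D1:**
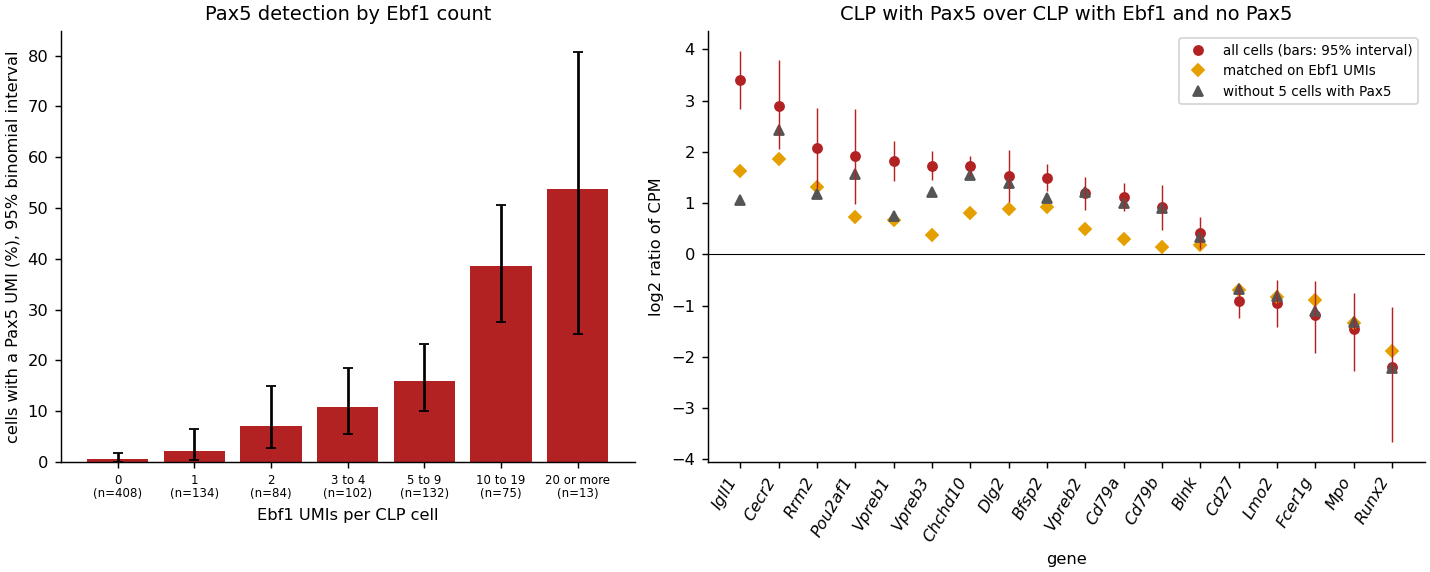
Left, share of CLP cells with a Pax5 UMI by number of Ebf1 UMIs per cell, with exact binomial 95% intervals. Right, log2 ratio of CPM in Pax5+ over Ebf1+ Pax5- cells for all cells with counting intervals (circles), after matching on Ebf1 UMIs (diamonds) and without the 5 Pax5+ cells richest in surrogate light chain UMIs (triangles). The share rises from 0.490% to 53.8% over the Ebf1 classes, and most ratios of B lineage genes are nearer 0 after matching, while those of Mpo and Runx2 stay below −1.

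Against Ebf1+ Pax5- cells, the Pax5+ cells carried more transcripts of the surrogate light chain and the B cell receptor signalling chains, and fewer of Runx2, Mpo and Fcer1g, which dendritic or myeloid cells also express. A gene counted as different when it stood 2-fold or more apart with 50 CPM or more in the higher set. Of 2562 genes that reached that level, 34 were higher in Pax5+ cells (1.33%) and 22 lower (0.859%), 2.19% in all, and the median log2 ratio of the 2562 was 0.01. The filter asks for only about 26.5 UMIs in Pax5+ cells but 105 in Ebf1+ Pax5- cells, so that genes higher in Pax5+ cells rest on fewer UMIs.

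Of the 6 genes of the surrogate light chain and B cell receptor list, 5 were at least 2-fold higher in Pax5+ cells and none lower, with a median log2 ratio of 1.46. Lists count genes with 10 or more UMIs over both sets, and of all 9559 such genes 4.06% were higher by that much and 8.94% lower, with a median of −0.03. The surrogate light chain stands in for the light chain in the first receptor a B cell precursor makes. It is built of the products of Igll1, which encodes lambda5, and of Vpreb1 or Vpreb2, while Cd79a and Cd79b encode the chains that carry the receptor's signal. Vpreb1 and Vpreb2 are near-identical copies between which counting could divide transcripts.

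Igll1 (ENSMUSG00000075370, chr16:16860671-16863985, minus strand) showed the highest ratio of these genes and the most uneven counts. Per cell its lowest, median and highest counts were 0, 0 and 26 UMIs in Pax5+ cells, 0, 0 and 17 in Ebf1+ Pax5- cells and 0, 18 and 68 in pro-B. It stood at 191 CPM in Pax5+ cells (155 to 232), against 18.2 in Ebf1+ Pax5- cells (12.9 to 24.9), a log2 ratio of 3.39 (2.84 to 3.97). Of its 101 UMIs in Pax5+ cells, 73 lay in 3 cells (72.3%), so that the summed level describes a few cells. Igll1 was counted in 13 of 79 Pax5+ cells (16.5%), 16 of 332 Ebf1+ Pax5- cells (4.82%) and 1105 of 1106 pro-B cells. Thinned to 2000 UMIs, the shares were 5.48% (interval 1.51 to 13.4) in Pax5+ cells and 2.48% in Ebf1+ Pax5- cells, a difference within the interval, so that a higher share was not detectable at that depth. Thinned to 4000 UMIs, with 27 shallower Pax5+ cells left out, the shares were 19.2% of 52 Pax5+ cells (interval 9.63 to 32.5) and 12 of 261 Ebf1+ Pax5- cells (2.40% to 7.89%). Without the 5 Pax5+ cells highest in summed Igll1, Vpreb1 and Vpreb2 UMIs, the log2 ratio of Igll1 was 1.06 and that of Vpreb1 0.75, against 1.82 for Vpreb1 with them.

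The other 5 genes were spread over more cells. Cd79a (ENSMUSG00000003379, chr7:24897381-24902197, plus strand) had a lowest, median and highest of 0, 1 and 11 UMIs per cell in Pax5+ cells, 0, 0 and 17 in Ebf1+ Pax5- cells and 0, 11 and 43 in pro-B. Its level was 342 CPM in Pax5+ cells (294 to 395) and 157 in Ebf1+ Pax5- cells (140 to 175), a log2 ratio of 1.12 (0.85 to 1.39), and at 2000 UMIs it was counted in 42.5% of Pax5+ cells (interval 31.0 to 54.6) and 19.3% of Ebf1+ Pax5- cells. The 5 richest cells held 24.3% of its UMIs in Pax5+ cells. Vpreb3, which codes for a partner protein of the forming receptor, stood at 376 CPM in Pax5+ cells and 113 in Ebf1+ Pax5- cells (log2 1.73, 1.45 to 2.01), and at 2000 UMIs it was counted in 37.0% of Pax5+ cells and 9.94% of Ebf1+ Pax5- cells. Vpreb2 stood at 240 CPM in Pax5+ cells and 105 in Ebf1+ Pax5- cells (log2 1.19, 0.86 to 1.51). Vpreb1 stood at 206 CPM in Pax5+ cells and 58.3 in Ebf1+ Pax5- cells (log2 1.82, 1.43 to 2.20), and Cd79b at 125 CPM in Pax5+ cells and 65.5 in Ebf1+ Pax5- cells (log2 0.93, 0.48 to 1.36). Other CLP cells give a background within the same library, at a median depth of 6150 UMIs. There, Cd79a was counted in 6.33% of cells, Vpreb3 in 2.61%, Vpreb2 in 3.54% and Igll1 in 1.12%. In Pax5+ cells these shares were 67.1%, 48.1%, 60.8% and 16.5%. In the plasmacytoid dendritic-like cluster, Igll1 was counted in 4 of 75 cells (5.33%, interval 1.47 to 13.1). That share is near the 4.82% of Ebf1+ Pax5- cells.

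Part of these differences went with the Ebf1 count. In an alternative added once the data were known, the Ebf1+ Pax5- cells were weighted to the Ebf1 counts of the 74 Pax5+ cells with 2 or more Ebf1 UMIs, over 4 classes of Ebf1 UMIs. The log2 ratio was then 0.30 for Cd79a, 0.37 for Vpreb3, 0.49 for Vpreb2, 0.68 for Vpreb1, 0.14 for Cd79b and 1.62 for Igll1, so that of the 6 genes Igll1 alone stayed past 2-fold. Ebf1 itself stood at 0.05 after matching. The highest class, 12 or more Ebf1 UMIs, held 25 Pax5+ and 28 Ebf1+ Pax5- cells and the largest weight of the 4, so the matched values rest on few comparison cells.

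The promoters of Cd79a and Igll1 are shown because both genes were given as marks of the described cells, their products belong to the same receptor, and their counts spread so differently over cells. The windows run from 250 bases before to 50 after the RefSeq start of each gene (GRCm38.p6, chr7:24897247-24897546, plus strand, and chr16:16863936-16864235, minus strand), and capitals mark the core of the Ebf1 motif, CCCNNGGG, searched on both strands, which give the same matches because the core is its own reverse complement.
Cd79a: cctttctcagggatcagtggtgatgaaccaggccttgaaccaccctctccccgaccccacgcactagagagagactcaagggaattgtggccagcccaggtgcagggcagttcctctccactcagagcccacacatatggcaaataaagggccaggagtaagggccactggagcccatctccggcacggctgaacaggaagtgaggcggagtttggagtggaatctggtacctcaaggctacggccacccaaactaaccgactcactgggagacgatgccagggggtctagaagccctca
Igll1: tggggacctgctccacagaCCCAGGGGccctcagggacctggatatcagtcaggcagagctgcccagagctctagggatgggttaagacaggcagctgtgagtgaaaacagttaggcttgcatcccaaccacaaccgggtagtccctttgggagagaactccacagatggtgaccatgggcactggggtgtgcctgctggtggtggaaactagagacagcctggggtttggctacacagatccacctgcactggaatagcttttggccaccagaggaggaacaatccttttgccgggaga
The Igll1 window held 1 core, 231 bases before the start, and the windows of Cd79a and Vpreb1 held none. The core occurs in 13.7% of 32851 promoter windows of the same length. A match is a description of these letters, and the absence of one says only that they are not in this window. Sites that depart from these letters were not searched for, so the windows do not show which gene Ebf1 binds.

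**Figure D2:**
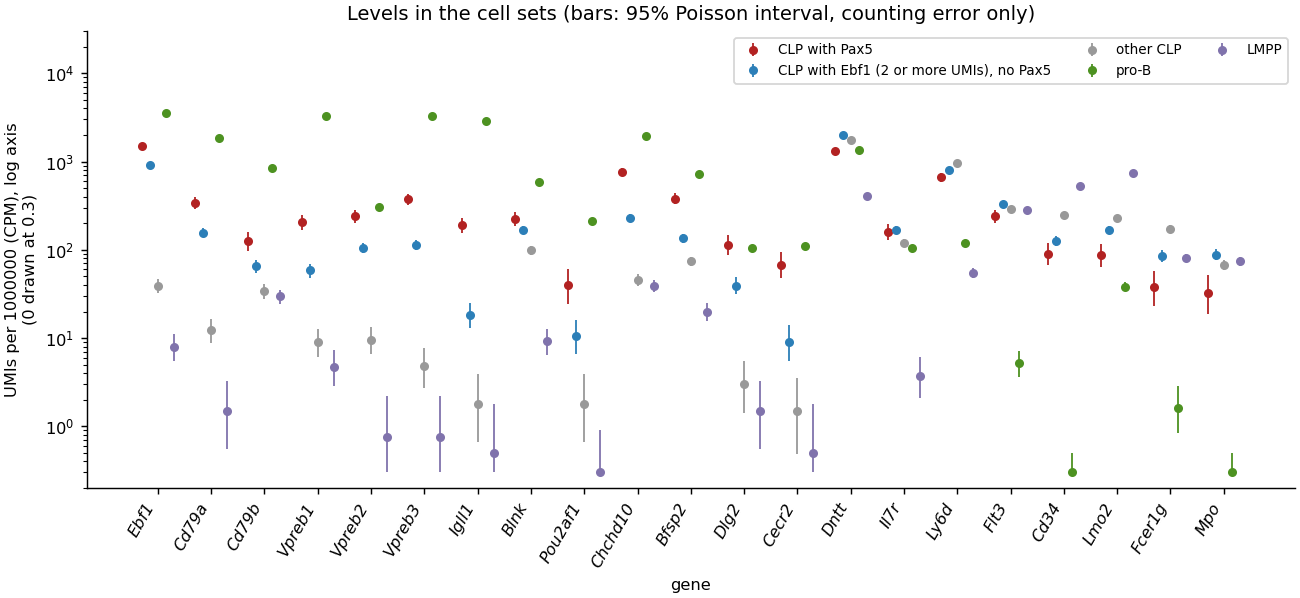
Levels of B lineage, progenitor and other-lineage genes in CPM on a log axis for Pax5+ CLP cells, Ebf1+ Pax5- CLP cells, other CLP cells, pro-B cells and LMPP, with Poisson 95% intervals (levels of 0 are drawn at 0.3). Pax5+ cells lie between Ebf1+ Pax5- cells and pro-B for Cd79a, Vpreb1, Vpreb2, Vpreb3, Igll1 and Chchd10, while their Flt3, 240 CPM, is near that of Ebf1+ Pax5- cells at 328 and far above pro-B at 5.16.

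Chchd10, whose product is a protein of mitochondria, was counted in more Pax5+ cells than any other of the 12 genes ranked highest. Its lowest, median and highest were 0, 3 and 37 UMIs per cell in Pax5+ cells, 0, 0 and 20 in Ebf1+ Pax5- cells and 0, 11 and 49 in pro-B, with a UMI in 68 of 79 Pax5+ cells. It stood at 766 CPM in Pax5+ cells (693 to 844) and 231 in Ebf1+ Pax5- cells, a log2 ratio of 1.73 (1.53 to 1.92), and at 0.81 after matching on Ebf1. At 2000 UMIs per cell, 64.4% of Pax5+ cells (interval 52.3 to 75.3) and 27.3% of Ebf1+ Pax5- cells had a UMI. Chchd10 (chr10:75933130-75937747, plus strand) and Vpreb3 (chr10:75943057-75949657, plus strand) lie 5309 bases apart, and Igll1 and Vpreb1 lie 4417 bases apart on chr16. Mmp11, which overlaps Chchd10 on the other strand, was also higher, at 58.5 CPM in Pax5+ cells and 22.5 in Ebf1+ Pax5- cells. It was singled out after its values were seen, and whether counting used strand is not given in the sources used here.

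Bfsp2, a filament protein gene best known from the lens, Cecr2, a chromatin factor gene, and Dlg2, a scaffold protein gene, were also among the 12 ranked highest. Bfsp2 stood at 381 CPM in Pax5+ cells and 135 in Ebf1+ Pax5- cells (log2 1.49, 1.23 to 1.76). Cecr2 had 36 UMIs in 21 Pax5+ cells and 19 UMIs in 18 Ebf1+ Pax5- cells, which is 67.9 CPM in Pax5+ cells and 9.08 in Ebf1+ Pax5- cells (log2 2.90, 2.06 to 3.79). Dlg2 stood at 113 CPM in Pax5+ cells and 39.2 in Ebf1+ Pax5- cells (log2 1.53, 1.03 to 2.03). After matching on Ebf1 the log2 ratios were 0.92 for Bfsp2, 1.85 for Cecr2 and 0.89 for Dlg2. In pro-B these genes stood at 722, 111 and 105 CPM. The log2 ratio of Dlg2 to pro-B was 0.11 (−0.29 to 0.49), an interval that includes equality. It was 0.44 (0.03 to 0.82) when mitochondrial and ribosomal protein genes were left out of the totals, and 0.45 (0.05 to 0.83) by median-of-ratios scaling, so whether equality is included depends on the scaling.

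Genes of DNA replication and division filled much of the rest of the 12. Rrm2, a subunit of the enzyme that makes DNA building blocks, stood at 58.5 CPM in Pax5+ cells and 13.9 in Ebf1+ Pax5- cells (log2 2.08, 1.30 to 2.86), with 77.4% of its UMIs in 5 cells. Hells, a chromatin remodeller of replicating cells, stood at 125 CPM in Pax5+ cells and 44.0 in Ebf1+ Pax5- cells (log2 interval 1.02 to 1.97). The tubulin gene Tuba1b had a log2 ratio of 1.11, and Ybx3, a nucleic acid binding protein gene, one of 1.54. In other CLP cells, Rrm2 stood at 26.0 CPM, Hells at 89.7, Tuba1b at 349 and Ybx3 at 42.7, each between the levels of both sets. The log2 ratio of Pax5+ to other CLP cells was 1.17 for Rrm2, 0.47 for Hells, 0.60 for Tuba1b and 0.67 for Ybx3. The S phase list had 4 of 18 members past 2-fold on the higher side and none on the lower (median log2 0.53), and the G2/M list 7 of 15 measured and none (median 0.98). Of all 9559 genes with 10 or more UMIs over both sets, 4.06% were higher by that much. With 50 or more UMIs required, 3 G2/M genes were left, none past 2-fold, with a median of 0.22. Among the G2/M UMIs of Pax5+ cells, 54.7% lay in 3 cells, and the cells with 3 or more such UMIs were 9 of 79 Pax5+ cells (11.4%) and 33 of 332 Ebf1+ Pax5- cells (9.94%). Thinned to 2000 UMIs, S phase cells by 3 or more UMIs were 31.5% of Pax5+ cells (interval 21.1 to 43.4), 23.0% of Ebf1+ Pax5- cells, 38.2% of other CLP cells and 58.0% of pro-B. G2/M cells by the same rule were 4.11% of Pax5+ cells, 3.42% of Ebf1+ Pax5- cells and 8.58% of other CLP cells. At that depth neither share in Pax5+ cells was detectably apart from that in Ebf1+ Pax5- or in other CLP cells. In cells of both sets under 10000 UMIs, compared once the data were known, the log2 ratio was 0.55 for Hells, 1.14 for Rrm2, 0.70 for Tuba1b and 1.77 for Igll1. In those cells it was 1.24 for Cd79a, 1.60 for Vpreb3 and 1.71 for Chchd10, near the values over all cells.

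**Figure D3:**
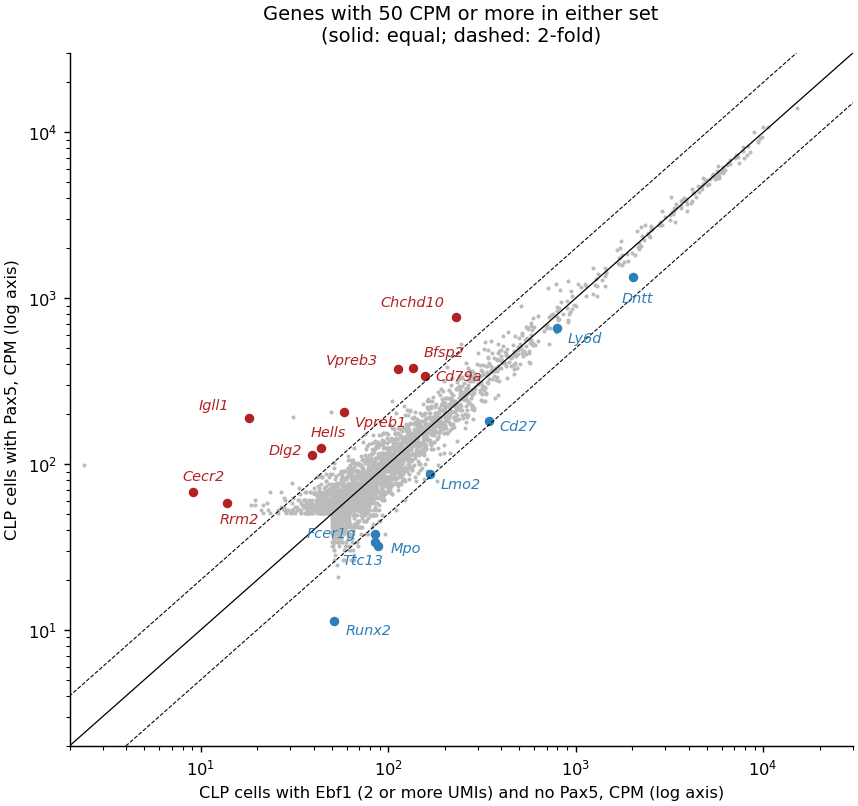
Level in Pax5+ CLP cells (vertical) against Ebf1+ Pax5- CLP cells (horizontal), in CPM on log axes, 1 point per gene that reaches 50 CPM in either set, without Pax5 and Ebf1. Of 2562 genes 34 lie at or above the upper dashed line (2-fold) with 50 CPM or more in Pax5+ cells, Igll1 at 191 against 18.2 CPM among them, and 22 at or below the lower one, with Runx2 lowest at 11.3 against 51.6 CPM.

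Genes lower in Pax5+ cells were led by Runx2, Mpo and Hist1h2bc. Runx2, a transcription factor gene that plasmacytoid dendritic cells also express, had 6 UMIs in 6 Pax5+ cells and 108 in 83 Ebf1+ Pax5- cells, which is 11.3 CPM in Pax5+ cells and 51.6 in Ebf1+ Pax5- cells (log2 −2.19, −3.67 to −1.02). Mpo, the myeloperoxidase of neutrophil granules, was counted in 15 of 79 Pax5+ cells and in 121 of 332 Ebf1+ Pax5- cells, with at most 2 UMIs in a Pax5+ cell and 5 in an Ebf1+ Pax5- cell. Its level was 32.1 CPM in Pax5+ cells and 88.4 in Ebf1+ Pax5- cells (log2 −1.46, −2.27 to −0.74). Fcer1g, a signalling chain of Fc receptors, stood at 37.7 CPM in Pax5+ cells and 85.6 in Ebf1+ Pax5- cells (log2 −1.18, −1.93 to −0.51). Cd27, a surface receptor of lymphoid progenitors, stood at 183 CPM in Pax5+ cells and 344 in Ebf1+ Pax5- cells (log2 −0.91, −1.23 to −0.60). Lmo2, a transcriptional adaptor of stem and progenitor cells, stood at 86.8 CPM in Pax5+ cells and 167 in Ebf1+ Pax5- cells (log2 −0.95, −1.42 to −0.50). The remaining 7 of the 12 ranked lowest were Hist1h2bc, Rgs2, Ttc13, Epb41l4b, Tespa1, Ddit4 and Samsn1, with log2 ratios between −1.35 for Rgs2 and −0.91 for Samsn1. These ratios moved little with the Ebf1 count: after matching they were −1.89 for Runx2, −1.35 for Mpo, −0.90 for Fcer1g, −0.70 for Cd27 and −0.83 for Lmo2.

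Most marker lists of other cells stood lower in Pax5+ than in Ebf1+ Pax5- cells or at 0. The 5 T cell markers found in the files (Cd3e, Cd3g, Cd3d, Cd8a, Cd4), the 5 neutrophil, the 5 basophil and mast cell and the 4 stroma markers had no UMI in Pax5+ cells. In Ebf1+ Pax5- cells these lists summed to 1.43, 1.43, 0.478 and 2.87 CPM. Each sum is under the 5.66 CPM that 3 UMIs make in Pax5+ cells, so these zeros show no difference. Of 6 mature B cell markers only Cd74 was counted, with 6 UMIs. Erythroid markers summed to 7.55 CPM in Pax5+ cells and 4.30 in Ebf1+ Pax5- cells, and monocyte markers to 88.7 CPM in Pax5+ cells and 86.5 in Ebf1+ Pax5- cells. Markers of plasmacytoid dendritic cells summed to 498 CPM in Pax5+ cells and 771 in Ebf1+ Pax5- cells, with Siglech in 4 of 79 Pax5+ cells, and myeloid progenitor markers to 34.0 CPM in Pax5+ cells and 95.6 in Ebf1+ Pax5- cells, with Elane, Ctsg and Cebpa at 0 in Pax5+ cells. Mpo alone made 32.1 of the 34.0 CPM of myeloid progenitor markers in Pax5+ cells and 88.4 of the 95.6 in Ebf1+ Pax5- cells. That sum is therefore no comparison separate from Mpo. The part of these other lineages in the lower ratios was not tested. With both clusters named as dendritic-like and innate-like left out, 34 genes were higher and 21 lower in Pax5+ cells. The dendritic-like cluster held only 1 Pax5+ cell and 7 Ebf1+ Pax5- cells, and the innate-like cluster 0 of either. Leaving them out could therefore change the counts little and decides nothing about these lineages.

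Lists of genes that Pax5 is known to activate or repress in mouse B cells bear on what a Pax5 transcript goes with in CLP. Of 18 genes on the activated list, 12 had 10 or more UMIs over both sets: 3 were at least 2-fold higher in Pax5+ cells, Cd79a and Id3 among them, none was lower, 10 lay above 0, and the median log2 ratio was 0.58. Of all 9559 genes at that filter, 4.06% were higher by that much and 8.94% lower. With 50 or more UMIs required, 8 genes of the activated list were left, with a median of 0.54. Of these, Cd79a alone was past 2-fold, and Id3 fell under that filter. Blnk, the adaptor that links the receptor to its kinases, stood at 225 CPM in Pax5+ cells and 168 in Ebf1+ Pax5- cells (log2 0.42, 0.10 to 0.72). After matching on Ebf1, the log2 ratio was 0.19 for Blnk and 0.30 for Cd79a. Cd72, a surface receptor of B cells, was at a log2 ratio of −0.45, with an interval from −1.09 to 0.14 that includes equality. Lef1, a transcription factor of pro-B cells, had 6 UMIs in 4 Pax5+ cells and 1 UMI among Ebf1+ Pax5- cells.

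Of 14 genes on the repressed list, 11 were measured: 1 was at least 2-fold lower in Pax5+ cells (Fcer1g), 1 higher (Ccl9, with 8 UMIs in 5 cells), 9 lay below 0, and the median log2 ratio was −0.30. The share lower by 2-fold is near that of all genes at the same filter, 8.94%. Flt3, a cytokine receptor of progenitors, had a lowest, median and highest of 0, 1 and 7 UMIs in Pax5+ cells, 0, 2 and 11 in Ebf1+ Pax5- cells and 0, 0 and 3 in pro-B. It stood at 240 CPM in Pax5+ cells (200 to 285) and 328 in Ebf1+ Pax5- cells (304 to 353), a log2 ratio of −0.45 (−0.74 to −0.18). Notch1, the receptor that directs T cell fate, stood at 92.5 CPM in Pax5+ cells and 147 in Ebf1+ Pax5- cells (log2 −0.67, −1.14 to −0.23). Both genes were still present in Pax5+ cells, Flt3 in 56 and Notch1 in 30 of 79.

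Lists of the early lymphoid state held few genes past 2-fold. Of 11 early lymphoid genes 1 was at least 2-fold lower in Pax5+ cells (Ccr9) and none higher, with a median log2 ratio of −0.27, and of 12 genes of IL-7 signalling 1 was lower (Stat5a) and none higher, with a median of −0.13. Both shares are near the 8.94% of all genes. Il7r, the receptor for the cytokine that early B cells need, stood at 160 CPM in Pax5+ cells and 169 in Ebf1+ Pax5- cells (log2 −0.08, −0.44 to 0.27). Ly6d, a surface protein gene of B-biased CLP, stood at 661 CPM in Pax5+ cells and 794 in Ebf1+ Pax5- cells (log2 −0.27, −0.44 to −0.10). Dntt, which adds bases at antigen receptor joints, stood at 1334 CPM in Pax5+ cells and 2019 in Ebf1+ Pax5- cells (log2 −0.60, −0.71 to −0.48) and was counted in 74 of the 79 Pax5+ cells. Rag1, a recombinase subunit that cuts antigen receptor loci, was counted in 40 of 79 Pax5+ cells and 132 of 332 Ebf1+ Pax5- cells. At 2000 UMIs those shares were 32.9% of Pax5+ cells (interval 22.3 to 44.9) and 58 of 322 Ebf1+ Pax5- cells. Rag1 was singled out after its values were seen. Among B lineage regulators other than Pax5 and Ebf1, 13 were measured and 1 was at least 2-fold higher, where the share of all genes at that filter was 4.06%. It was Pou2af1, a co-activator of B cells, at 39.6 CPM in Pax5+ cells and 10.5 in Ebf1+ Pax5- cells (log2 1.91, 0.98 to 2.85). After matching on Ebf1 its log2 ratio was 0.73. With 50 or more UMIs required, 11 regulators were left and none was past 2-fold. Foxo1, Tcf3, Ets1 and Runx1 had log2 ratios between 0.23 and 0.37 and Ikzf1, Spi1 and Bcl11a between −0.42 and −0.03. Of 10 measured stem and multipotent genes 9 lay below 0 and 1 was at least 2-fold lower (Mycn; median −0.59), again near the 8.94%. Of 6 measured genes of T and innate lymphoid cells all lay below 0 and 2 were at least 2-fold lower (Tox and Klrd1; median −0.62), beside the same 8.94% of all genes.

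**Figure D4:**
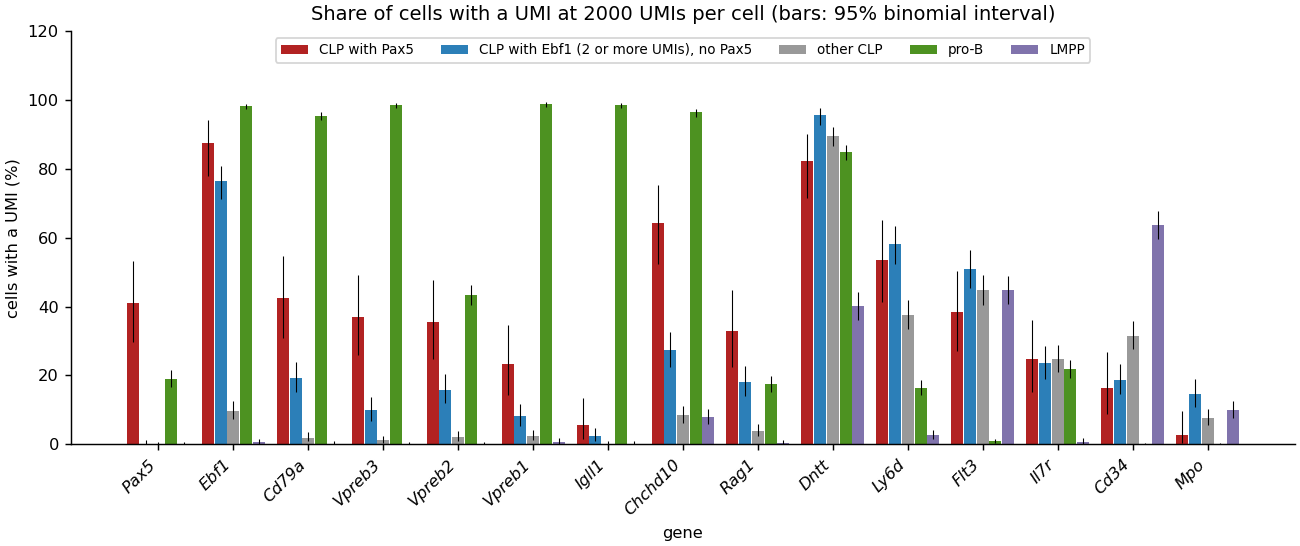
Share of cells with a UMI of each gene after every cell was thinned to 2000 UMIs, with exact binomial 95% intervals, for Pax5+ CLP cells (73), Ebf1+ Pax5- CLP cells (322), other CLP cells (513), pro-B cells (1070) and LMPP (573). Cd79a was counted in 42.5% of Pax5+ cells, 19.3% of Ebf1+ Pax5- cells and 95.5% of pro-B cells, while Igll1 was counted in 5.48% of Pax5+ cells, 2.48% of Ebf1+ Pax5- cells and 98.7% of pro-B cells.

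The 79 cells were not alike. Surrogate light chain UMIs (Igll1, Vpreb1 and Vpreb2 summed) had a lowest, median and highest of 0, 2 and 46 per cell, were absent in 24 cells, and lay to 39.2% in 3 cells. These 3 cells had 17743, 16370 and 20642 UMIs and carried 26, 22 and 25 UMIs of Igll1 and 15, 19 and 11 of Vpreb1. They had 44, 34 and 61 UMIs of S phase genes and 26, 64 and 17 of G2/M genes, each among the 5 highest counts, where the medians over all 79 cells were 5 and 1. Flt3 was counted in 2 of the 3, with 2 and 5 UMIs. In cells with 4 or more Igll1 UMIs, 7 in all, Cd27 stood at 9.79 CPM, from 1 UMI, and Flt3 at 157. In the 66 cells without Igll1 they stood at 231 and 261 CPM. Those 66 cells still stood at 291 CPM for Cd79a, 276 for Vpreb3, 248 for Vpreb2 and 636 for Chchd10. Compared with Ebf1+ Pax5- cells that also lacked Igll1, another alternative added once the data were known, their log2 ratios were 1.06 for Cd79a, 1.86 for Vpreb3, 1.67 for Chchd10 and 0.57 for Vpreb1.

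B lineage and progenitor transcripts were counted under the same barcodes, which is a description. Of the 53 Pax5+ cells with Cd79a, 41 also had Flt3, 44 Ly6d, 29 Rag1 and 10 Mpo, where 56, 60, 40 and 15 of all 79 cells had these genes. In the plasmacytoid dendritic-like cluster, at the median depth of 7026 UMIs, Cd79a was counted in 5.33% of the 75 cells (interval 1.47 to 13.1), Rag1 in 2.67% and Mpo in 6.67% (2.20 to 14.9). Mpo was counted in 15 of 79 Pax5+ cells, a larger share than in the cluster, at a lower median depth of 6162 UMIs. The intervals of both shares overlap, but overlap does not show the shares to be alike. No Pax5+ cell had more than 2 Mpo UMIs, and whether these UMIs came from free RNA was not tested. The 19 cells with 2 or 3 Pax5 UMIs stood at 492 CPM for Cd79a (389 to 614), 441 for Igll1, 1122 for Chchd10 and 6.31 for Mpo, from 1 UMI, at a median depth of 7432. The 60 cells with 1 Pax5 UMI stood at 277 CPM for Cd79a (226 to 336), 83.5 for Igll1, 614 for Chchd10 and 43.1 for Mpo, at a median depth of 6051.5. The Igll1 levels rest on few cells. Of its 70 UMIs in the 19 cells, 2 cells held 22 and 25. Of its 31 UMIs in the 60 cells, 1 cell held 26. Cells with 10 or more Ebf1 UMIs, 36 in all, held 96 of the 101 Igll1 UMIs, at a median depth of 7357.5 against 4026 in the 38 cells with 2 to 9 Ebf1 UMIs.

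**Figure D5:**
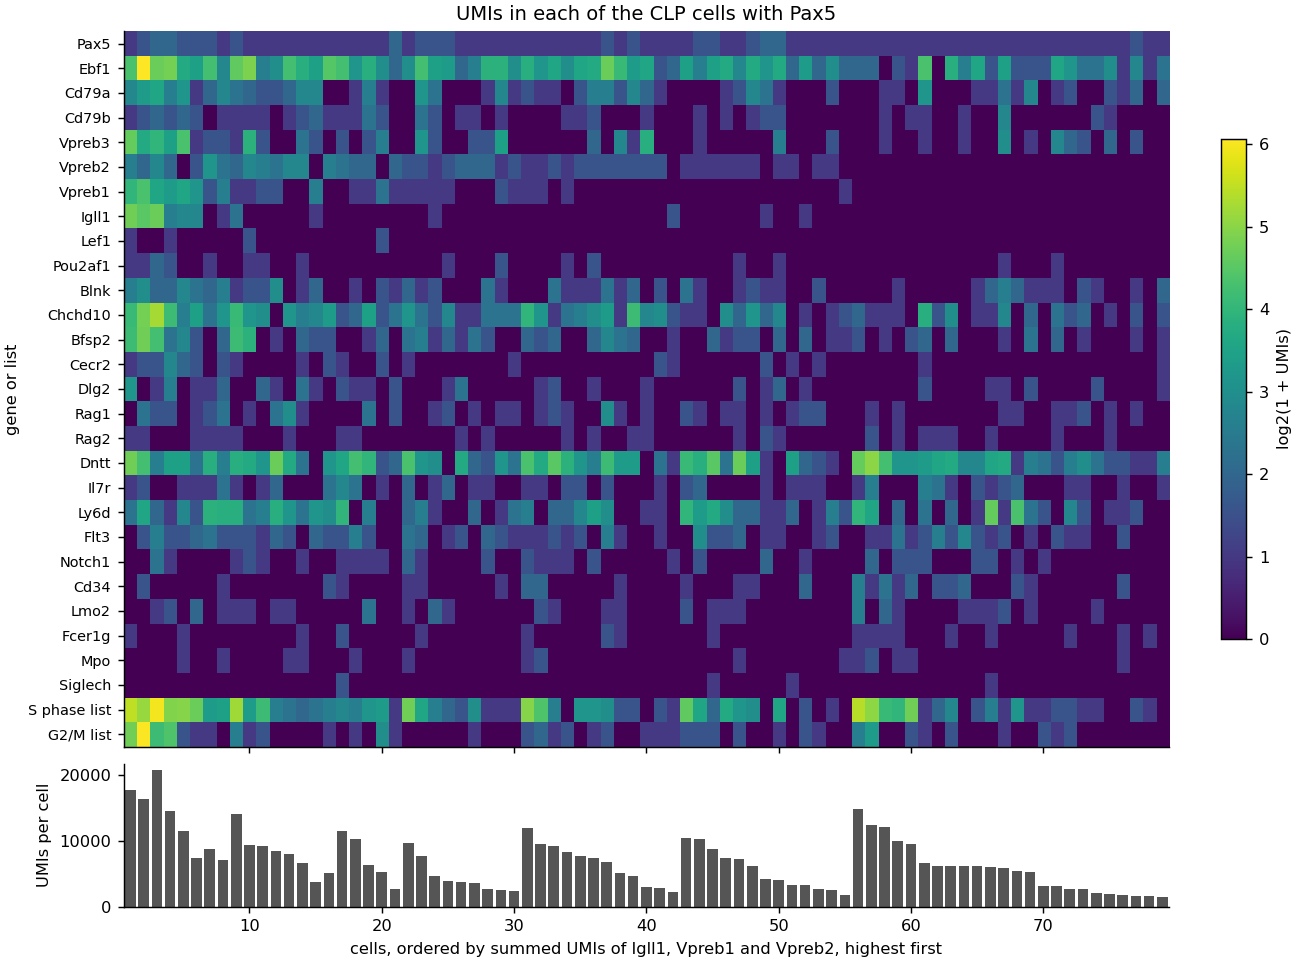
UMIs of Pax5, other named genes and the S phase and G2/M lists (down the side, log2(1 + UMIs) by colour) in each of the 79 Pax5+ CLP cells (across), ordered by summed UMIs of Igll1, Vpreb1 and Vpreb2, above the UMIs per cell. The 3 leftmost cells carry 22 to 26 Igll1 UMIs and 17 to 64 of the G2/M list at 16370 to 20642 UMIs per cell, while Ebf1, Dntt and Chchd10 run through most cells.

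When all CLP cells were clustered without Pax5, the Pax5+ cells gathered in 1 cluster without filling it. The cluster led by Vpreb2, Cd79a, Vpreb3 and Ebf1 held 56 of the 79 Pax5+ cells (70.9%) and 176 of the 332 Ebf1+ Pax5- cells (53.0%), and Pax5+ cells made up 21.4% of it. A cluster led by Igll1 and genes of mitosis, of 66 cells at a median depth of 8853.5 UMIs, held 11 Pax5+ cells (13.9%) and 21 Ebf1+ Pax5- cells (6.33%). A cluster led by Cd34 held 4 Pax5+ cells and 73 Ebf1+ Pax5- cells. Because the leading genes of the clusters include those that differ between the sets, these shares describe the cells and are no separate comparison.

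Set against pro-B, the Pax5+ cells had less of nearly all receptor genes and of cell division, and more of progenitor genes. Of 2984 genes that reached 50 CPM in Pax5+ cells or pro-B, 260 were at least 2-fold higher in Pax5+ cells (8.71%) and 657 lower (22%), 30.7% in all, with a median log2 ratio of −0.35. These counts move with the scaling. Leaving mitochondrial and ribosomal protein genes out of the totals set the point of no change at −0.33 on the log2 scale of these ratios, and median-of-ratios scaling set it at −0.34. Counted from there, 429 genes were higher and 400 lower by the first scaling, and 437 higher and 392 lower by the second. The share of higher calls among all calls was thus 28.4% by total UMIs, against 51.7% and 52.7%. Library and population cannot be told apart here.

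Igll1 stood at 191 CPM in Pax5+ cells and 2909 in pro-B, 15.3-fold lower in Pax5+ cells, and Vpreb1 at 206 CPM in Pax5+ cells and 3316 in pro-B, 16.1-fold lower. Vpreb3 was 8.81-fold lower (376 CPM in Pax5+ cells and 3307 in pro-B), Cd79b 6.76-fold and Cd79a 5.42-fold lower, while Vpreb2 stood at 240 CPM in Pax5+ cells and 306 in pro-B (log2 −0.35, −0.62 to −0.09). Of the 6 genes 5 were thus at least 2-fold lower, and the ratio of Vpreb2 was near the median of the 2984 genes at 50 CPM or more. The 3 cells richest in surrogate light chain UMIs had 22 to 26 Igll1 UMIs each, against a pro-B median of 18 per cell. Their depths were 16370 to 20642 UMIs, against a pro-B median of 5687.5. Relative to depth, even these 3 cells thus held less Igll1 than pro-B. Pax5 itself stood at 194 CPM in Pax5+ cells and 103 in pro-B, as it must in cells chosen for a Pax5 UMI, and no more is read from it.

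Of 16 measured genes on the activated list, 14 were at least 2-fold lower in Pax5+ cells than in pro-B and none higher (median log2 −2.32). Of all 10727 genes with 10 or more UMIs over both, 16.1% were lower by that much and 14.5% higher. Blnk stood at 225 CPM in Pax5+ cells and 582 in pro-B. Lef1 and Id3, which restrains E proteins, both stood at 11.3 CPM in Pax5+ cells, against 237 and 264 in pro-B. On the repressed list 8 of 9 measured genes were at least 2-fold higher in Pax5+ cells and none lower (median 2.61, with Ccl3 at its bound). Flt3 stood at 240 CPM in Pax5+ cells and 5.16 in pro-B (log2 5.54, 5.00 to 6.10), Notch1 at 92.5 CPM in Pax5+ cells and 21.7 in pro-B, and Emb, a cell adhesion protein gene, at 140 CPM in Pax5+ cells and 22.8 in pro-B. The sort excluded Flt3+ cells from pro-B, so the ratio of Flt3 is no finding.

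Among the 10 genes ranked highest against pro-B, Cd34, a surface protein gene of stem and progenitor cells, stood at 90.6 CPM in Pax5+ cells and had no UMI in 1106 pro-B cells, at least 222-fold higher against a floor of 3 UMIs over that library. The chemokine genes Ccl3 and Ccl4 stood at 71.7 and 191 CPM in Pax5+ cells, against 0 and 1.09 in pro-B. Cox6a2, a subunit gene of cytochrome c oxidase, stood at 187 CPM in Pax5+ cells and had 7 UMIs in the pro-B library, and Dyrk4, a kinase gene, at 90.6 CPM in Pax5+ cells and 0.271 in pro-B. Shisa8, Tyrobp, Sla2 and Clec12a completed the 10 together with Flt3, with log2 ratios of 4.85 to 5.87 for the first 4. Against Ebf1+ Pax5- cells the log2 ratios of these 10 genes lay between −0.61 for Cox6a2 and 0.59 for Sla2.

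Of the lists described, that of G2/M genes stood farthest below pro-B. Every gene of the G2/M list, 18 in all, stood lower in Pax5+ cells by 2-fold or more, with a median log2 ratio of −3.52. The S phase list had 9 of 18 members lower by that much and none higher, with a median of −0.96. Of all 10727 genes with 10 or more UMIs over both, 16.1% were lower by that much, and their median was −0.07. Ube2c, an enzyme of ubiquitin transfer in mitosis, stood at 17.0 CPM in Pax5+ cells and 611 in pro-B, and Cdkn2d, an inhibitor of cyclin-dependent kinases, at 1.89 CPM in Pax5+ cells, from 1 UMI, and 219.8 in pro-B. The other genes ranked lowest were Gsn, Ptgr1, Cplx2, Asf1b, Slamf7, Cdc25b, Vpreb1 and Kpna2. Slamf7 had no UMI in Pax5+ cells and stood at 104 CPM in pro-B, at least 18.4-fold lower. Dntt stood at 1334 CPM in Pax5+ cells and 1354 in pro-B (log2 −0.02, −0.13 to 0.09). The sign of that ratio depends on the scaling, since it was 0.31 without mitochondrial and ribosomal protein genes and 0.32 by median-of-ratios scaling. It was 0.18 against pro-B cells with a Pax5 UMI. Other settings put it lower: −0.60 in cells low in G2/M UMIs and −0.39 with 2 or more Pax5 UMIs required. It was −0.29 at equal weight per cell, −0.25 at 2000 UMIs per cell and −0.21 in cells under 10000 UMIs.

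A last comparison placed the cells between LMPP and pro-B by genes chosen without any CLP cell. Among genes that reached 50 CPM in the higher library, 231 were 4-fold or more higher in pro-B than in LMPP and 122 lower. On a log2(CPM + 5) scale relative to LMPP, the median of the 231 was 0.77 in Pax5+ cells, 0.22 in Ebf1+ Pax5- cells, 0.48 in other CLP cells and 2.96 in pro-B. For the 122 lower genes the medians were −1.18 in Pax5+ cells, −0.82 in Ebf1+ Pax5- cells, −0.66 in other CLP cells and −3.01 in pro-B. The Pax5+ cells were thus the CLP set nearest to pro-B on both gene groups. Over the 231 genes the median in Pax5+ cells was 0.43 without the 5 cells richest in surrogate light chain UMIs and 0.37 in the 66 cells without Igll1, below that of other CLP cells. Both settings were added once the data were known. Over the 122 lower genes the median was −1.10 and −1.03 under them.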

How the data were processed

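CLP, pro-B and LMPP sorted from C57BL/6J bone marrow were each deposited as 1 matrix of raw UMI counts per gene and cell, from 10x Chromium 3' version 2 libraries per the labels' protocols. Per the submitters' processing notes the authors used Cell Ranger on mm10; its version and annotation are stated nowhere in the sources used here. Counts lie at 27998 genes. Barcodes with fewer than 500 genes or over 10% mitochondrial UMIs were left out. The members and gene lists were chosen with earlier results of these data known.

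UMIs were summed per cell set and divided by the set's total (CPM). Levels have exact Poisson intervals, ratios exact conditional intervals, and shares exact Clopper-Pearson intervals, all at 95%. With 1 library per population no test was made and no fit was run, and the code was tested on simulated data. A fold against 0 used a floor of 3 UMIs over the set. Lists count genes with 10 or more UMIs over both sets. Named were the 12 highest and 12 lowest genes against Ebf1+ Pax5- cells and the 10 highest and 10 lowest against pro-B, by the interval bound nearest to no change, among genes that reached 50 CPM and 10 cells with a UMI in the higher set. Added were the genes of 6 lists, up to 4 of each other list, and markers of other cells. Pax5, Ebf1, mitochondrial, ribosomal protein, immunoglobulin and unnamed genes (Gm number, Rik) were left out of the ranking. Trac was not found by its symbol. Some genes that these rules name are not reported here.

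Thinning drew 2000 or 4000 UMIs per cell. CLP cells were clustered without Pax5 (scanpy 1.11.5, leidenalg 0.10.2, igraph 0.11.9), and scrublet calls were removed as an alternative. Python 3.11.15, numpy 2.4.6, scipy 1.17.1, pandas 2.3.3, scikit-learn 1.9.0 and matplotlib 3.10.9 were used. All 154 named genes matched GENCODE M21 on GRCm38, which gave coordinates, and promoters are from RefSeq on GRCm38.p6.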

Additional observations from a re-analysis of the deposited data

How the results depend on the processing

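No gene followed through the alternatives, and no list median, that was at least 2-fold apart changed sign, but smaller ratios did, that of Dntt to pro-B under both scalings among them, and which of the higher and lower counts was larger also depended on the setting. Of 738 alternative values of single-gene ratios against Ebf1+ Pax5- cells 80 moved by more than their interval, and of 495 against pro-B 97 did. Of 16 alternative shares of Pax5+ cells with a UMI, at 4000 UMIs or unthinned, 10 moved, and of 72 list medians 7 did. Counts against Ebf1+ Pax5- cells, 34 higher and 22 lower in Pax5+ cells, were 228 higher and 188 lower with 2 or more Pax5 UMIs required, 20 higher and 21 lower without the 5 cells richest in surrogate light chain UMIs, and 159 higher and 117 lower at 2000 UMIs per cell. They were 13 and 3 at 100 CPM, 388 and 855 with no minimum CPM, and 6 and 1 at 4-fold. Against pro-B, 260 higher and 657 lower became 429 and 400 without mitochondrial and ribosomal protein genes, 437 and 392 by median-of-ratios scaling, 118 and 375 at 100 CPM, 1560 and 1731 with no minimum CPM, and 94 and 170 at 4-fold. The median over genes higher in pro-B than in LMPP, 0.77, was 0.43 without those 5 cells and 0.37 in cells without Igll1, both below the 0.48 of other CLP cells. By construction fewer cells enter with 2 or more Pax5 UMIs, fewer UMIs after thinning, fewer genes at 100 CPM and more genes with no minimum CPM; the cause of the other shifts was not tested. Alternatives chosen after the data were seen were matching on Ebf1, cells without Igll1, cells under 10000 UMIs and cells low in G2/M UMIs, beside both that placed cells between LMPP and pro-B. No paired analysis was possible because each population is 1 library with no replicate number, and for the same reason no replicate could be left out. Depth limits Pax5 itself: 60 of 79 cells rest on 1 UMI.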

Other observations

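A single Pax5+ cell set the level of Dqx1, a helicase-like gene that was singled out after its values were seen. Of 102 Dqx1 UMIs in Pax5+ cells, 88 lay in 1 cell of 17743 UMIs that also had 26 Igll1 UMIs. Ebf1+ Pax5- cells had 65 Dqx1 UMIs in 13 cells, at most 31 in 1 cell. The unnamed transcript A330069E16Rik, singled out in the same way, had 52 UMIs in 4 Pax5+ cells and 5 UMIs in Ebf1+ Pax5- cells, which is 98.1 CPM in Pax5+ cells and 2.39 in Ebf1+ Pax5- cells.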
